A study of Caenorhabditis elegans with 12 samples.

Results

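The mirtrons *mir-62*, *mir-1018*, *mir-1019* and *mir-1020* of *Caenorhabditis elegans* were followed through adult life in whole worms. They were chosen by name, as all lines of the deposited microRNA table whose precursor is 1 of these 4 hairpins. This gave 4 of the 223 precursor hairpins and 6 of the 368 mature microRNAs, namely miR-62, miR-1018 and both arms of *mir-1019* and *mir-1020*. The study sequenced small RNA from whole worms of the wild-type strain N2 at day 1 (D1), day 7 (D7), day 14 (D14) and day 21 (D21) of adulthood, with 3 biological replicates at each age and 12 libraries in all. No library came from a mutant or a treated worm, and by the labels the groups differ in age alone. Worms were staged from eggs and moved to new plates through the first part of adulthood to keep them apart from their progeny, and dead or damaged worms were taken away, so that each later age holds the survivors. In whole worms, fewer cells of a type and less microRNA per cell cannot be told apart.

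Most animal microRNAs are cut out of a long primary transcript by the nuclease Drosha with its partner Pasha, and the hairpin that results is then diced into a short duplex. A mirtron is a short intron that folds into such a hairpin by itself. The spliceosome cuts it out, a debranching enzyme opens the lariat, and the hairpin then enters the common pathway at Dicer without Drosha. The level of a mirtron therefore also depends on the transcription and splicing of the gene that hosts it. Wild-type libraries show levels and do not test this route.

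The placement of the 4 hairpins was first compared with their label. In the annotation of the WBcel235 genome, each hairpin begins 0 nt from the 5′ end of an intron and stops 0 nt from its 3′ end. *mir-62* (WBGene00003290) is 58 nt long and lies on chromosome X from 12692608 to 12692665 on the plus strand, where it is an intron of *ugt-50*, which encodes a UDP-glucuronosyltransferase. It is intron 3 in every annotated transcript with this intron but 1, in which it is intron 2. *mir-1018* (WBGene00050924) is 56 nt long and lies on chromosome X from 1879458 to 1879513 on the plus strand, where it is intron 27 of the 34 introns of the non-coding RNA gene *Y59E1B.1*. *mir-1019* (WBGene00050921) is 69 nt long and lies on chromosome I from 9361597 to 9361665 on the plus strand. It is intron 5 of *dyf-5*, which encodes a kinase of sensory cilia. *mir-1020* (WBGene00050922) is 70 nt long and lies on chromosome III from 10047746 to 10047815 on the minus strand, where it is intron 6 of the 29 introns of *T16G12.1*. The annotated 3p arm of each hairpin ends at the last base of its intron, next to the 3′ splice site, and the 5p arms of *mir-1019* and *mir-1020* begin at its first base. miR-62 and miR-1018 are listed with no arm in their names and are annotated at this 3p end. Of all 223 hairpins, 19 fill an intron in this way, 47 lie inside a larger intron on the same strand, 28 lie in an intron on the opposite strand, 121 are in no intron and 8 were not found in the annotation by name.

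**Figure D1:**
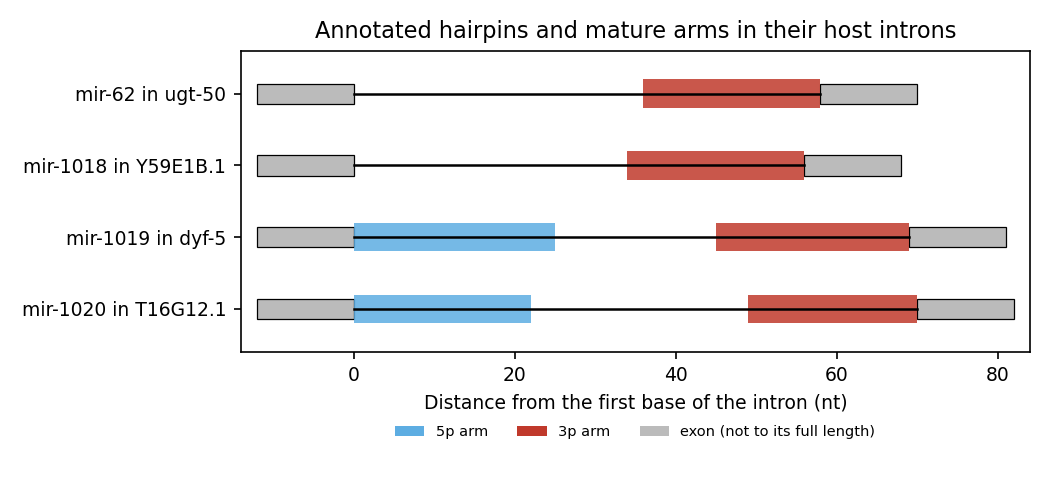
The 4 hairpins drawn to scale in their host introns, with the distance from the first base of the intron in nt on the x axis, the 5p arm in blue, the 3p arm in red and the flanking exons, cut short, in grey. Each intron (58 nt for *mir-62*, 56 nt for *mir-1018*, 69 nt for *mir-1019* and 70 nt for *mir-1020*) is filled from end to end by the hairpin, and each 3p arm reaches the last base.

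The libraries held from 5782871 to 16863518 microRNA counts, and D1 had both the smallest and the largest total. Counts were scaled by TMM and are given as CPM, that is relative to the scaled total of the library. Of the 368 microRNAs, 245 had enough counts to be tested. Markers of muscle (miR-1-3p, at least 36395 counts), glia (miR-228-5p, at least 85240), the intestine (miR-60-3p, at least 367) and neurons (miR-124-3p, at least 31) were present in every library, as in whole worms. Their levels were not even over age. miR-60-3p was at 159 to 545 CPM at D1, 204 to 375 at D7, 68.9 to 121 at D14 and 68.6 to 185 at D21. miR-1-3p lay within 12280 to 13480 CPM at D1 and 5792 to 8846 at D21, miR-124-3p within 6.06 to 7.11 and 11.6 to 16.7 CPM, and miR-228-5p had its lowest level at D7 (9719 to 13100 CPM) and its highest at D14 (25400 to 43120 CPM). The miR-35 family is a set of microRNAs of the germline and the embryo, and its 3p arms took 1.92% to 2.44% of the counts at D1, 8.10% to 10.2% at D7, 19.8% to 22.3% at D14 and 19.9% to 21.8% at D21. All 8 of these arms had counts. The part of these markers and of this family in the differences of mirtrons between ages was not tested. On the log2 scale over the 245 microRNAs, D14 replicate 1 lay 0.654 (root mean square) from the mean of the other libraries of its age and 0.431 from that of D21. D21 replicate 1 lay 0.627 from its own age and 0.422 from D14, and values without these libraries are given where they matter. D21 replicate 2 lay 0.509 from its own age and 0.460 from D14.

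The mirtrons differed widely in level. miR-62 had 12722 counts over the 12 libraries, miR-1020-3p had 789 and miR-1018 had 746, and these 3 arms were tested. The other 3 arms had too few counts. miR-1019-5p had 6 counts in all, namely 1, 0 and 1 in the 3 libraries of D7, 3, 1 and 0 in those of D21, and none at D1 or D14. miR-1019-3p had 0 counts in the 12 libraries, which allows up to 3 counts or 0.0294 CPM over all of them. miR-1020-5p had 5 counts, all at D1 (3, 0 and 2), and the 0 counts at D7, D14 and D21 allow up to 0.132, 0.144 and 0.124 CPM. No age difference can be read for *mir-1019* at this depth. These limits cover counting error only.

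miR-62, the most abundant mirtron at every age, was highest at D21. Its level was 94.4, 99.5 and 123 CPM in the 3 libraries of D1. It was 80.0, 95.9 and 76.5 CPM at D7, so that the libraries of these ages overlapped. It was 155, 119 and 104 CPM at D14. At D21 it was 150.1, 166 and 212 CPM. The libraries of D21 all lay above those of D1 and D7, while those of D14 overlapped with both D1 and D21. The means were 106 ± 15.4 CPM (SD, n = 3) at D1, 84.1 ± 10.3 at D7, 126 ± 26.4 at D14 and 176 ± 32.3 at D21. At these levels miR-62 ranked between 79 and 96 among the 368 microRNAs.

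The fit over all microRNAs gave miR-62 a rise at D21 against D7 of 1.06 on the log2 scale (SE 0.23, adjusted p = 0.0019 from the quasi-likelihood test of edgeR with Benjamini-Hochberg adjustment). Against D1 the rise was 0.73 (SE 0.23, adjusted p = 0.011 from edgeR), or 1.66-fold. This call depended on single libraries and on the scaling. It was lost without D21 replicate 3 (0.43, adjusted p = 0.129 from edgeR), D1 replicate 1 (0.58, adjusted p = 0.0842) or D1 replicate 2 (0.56, adjusted p = 0.0719), and with total counts as the scale (0.56, adjusted p = 0.0644). The adjusted p ran from 0.00232 to 0.129 over the alternatives. The log2 fold change at D14 was 0.25 against D1 (95% interval -0.24 to 0.745, adjusted p = 0.35 from edgeR) and 0.58 against D7 (adjusted p = 0.057 from edgeR). With scaling by total counts the value at D14 against D1 was -0.089 (adjusted p = 0.772 from edgeR, with 0.293 to 0.984 over all alternatives). Between D1 and D7 it was -0.33 (95% interval -0.82 to 0.165, adjusted p = 0.28 from edgeR). miR-62 thus differed between ages over all 4 (adjusted p = 0.0049 from edgeR), within a 2.09-fold span.

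miR-1018 was rare in young worms and far higher in old ones. It had 12, 7 and 16 counts in the libraries of D1, 10, 20 and 18 in those of D7, 131, 84 and 55 in those of D14 and 96, 207 and 90 in those of D21. Scaled by TMM, the level was 0.768, 1.37 and 0.844 CPM at D1 and 1.37, 2.28 and 2.37 at D7. At D14 the level was 24.6, 12.9 and 8.09 CPM, and at D21 it was 8.13, 34.6 and 14.3 CPM. By count and by level, every library of D14 and D21 lay above every library of D1 and D7. The old libraries differed among themselves, with the highest level in D21 replicate 2 and levels near 8 CPM in D14 replicate 3 and D21 replicate 1. The means were 0.993 ± 0.327 CPM (SD, n = 3) at D1, 2.01 ± 0.555 at D7, 15.2 ± 8.50 at D14 and 19.0 ± 13.9 at D21. miR-1018 moved from rank 227 of the 368 microRNAs at D1 to rank 142 at D21.

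Against D1, miR-1018 rose by 4.02 on the log2 scale at D14 (SE 0.59, adjusted p = 4.1e-05 from edgeR), or 16.2-fold. At D21 the rise was 4.34 (SE 0.59, 95% interval 3.06 to 5.61, adjusted p = 1.9e-05 from edgeR), or 20.2-fold. Most of the rise came after D7. It was 2.90 between D7 and D14 (SE 0.55, adjusted p = 0.0013 from edgeR), where it ranked 2 among the rises of the 245 microRNAs. From D7 to D21 it was 3.21 (adjusted p = 4.6e-04 from edgeR), at rank 3. Against D1 the rank was 18 at D14 and 16 at D21. miR-1018 was tested only because it was high at D14 and D21, so these adjusted p are a description and support nothing further. Between D1 and D7 the log2 fold change was 1.12 (95% interval -0.23 to 2.47, adjusted p = 0.17 from edgeR), although the 3 libraries of D7 lay above every one of D1, with 1.37 CPM in both libraries of the closest pair. A fit of these 2 ages alone gave 1.07 with an adjusted p = 0.0442 from edgeR, against 0.0442 to 0.356 over all alternatives. The size rested in part on single libraries, of which leaving out 1 moved it by over 1.5-fold without changing the call. Without D21 replicate 2 the rise at D21 was 3.55 against D1 (adjusted p = 2.56e-05 from edgeR) and 2.56 against D7 (adjusted p = 0.00113 from edgeR). Without D14 replicate 1 the rise at D14 against D1 was 3.41 (adjusted p = 5.52e-05 from edgeR). Without both D14 replicate 1 and D21 replicate 1, the rise was 3.47 at D14 (adjusted p = 6.25e-06 from edgeR) and 4.56 at D21 (adjusted p = 3.18e-07 from edgeR).

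miR-1020-3p went the other way. It had 202, 77 and 330 counts at D1 and 44, 58 and 39 at D7. It had only 0, 5 and 7 counts at D14 and 14, 9 and 4 at D21. The 0 counts in D14 replicate 1 allow up to 0.443 CPM of its total count. The levels of each age down to D14 lay below all of the age before. They were 12.9, 15.05 and 17.4 CPM at D1 and 6.03, 6.61 and 5.14 at D7. They were 0, 0.769 and 1.03 CPM at D14 and 1.18, 1.51 and 0.637 at D21. Libraries of D14 and D21 overlapped, with no library of either above 1.51 CPM. The means were 15.1 ± 2.24 CPM (SD, n = 3) at D1, 5.93 ± 0.739 at D7, 0.600 ± 0.535 at D14 and 1.11 ± 0.439 at D21. miR-1020-3p moved from rank 142 at D1 to rank 243 at D14 and rank 234 at D21.

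Already at D7, miR-1020-3p had fallen by 1.35 on the log2 scale against D1 (SE 0.37, adjusted p = 0.011 from edgeR), or 2.55-fold. At D14 it had fallen by 4.55 (SE 0.49, 95% interval -5.61 to -3.49, adjusted p = 2.0e-06 from edgeR), or 23.4-fold. At D21 the fall was 13.4-fold (-3.75, SE 0.45, adjusted p = 4.7e-06 from edgeR). Between D7 and D14 it fell 9.18-fold (SE 0.51 on the log2 scale, adjusted p = 4.1e-04 from edgeR), the largest fall of the 245 microRNAs in this comparison. Its rank among the falls was 5 at D14 and 8 at D21 against D1, and 7 at D21 against D7. From D7 to D21 its log2 fold change came to -2.40 (adjusted p = 7.6e-04 from edgeR). miR-1020-3p was tested only because it was high at D1 and D7. Its adjusted p at D14 and D21 are therefore a description and support nothing further. Leaving out D14 replicate 3 gave a larger fall at D14, with -5.28 against D1 (adjusted p = 5.45e-06 from edgeR) and -3.81 against D7 (adjusted p = 4.19e-04 from edgeR). Without D14 replicate 1 and D21 replicate 1, the values were -4.06 at D14 (adjusted p = 7e-07 from edgeR) and -3.94 at D21 (adjusted p = 5.66e-07 from edgeR).

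**Figure D2:**
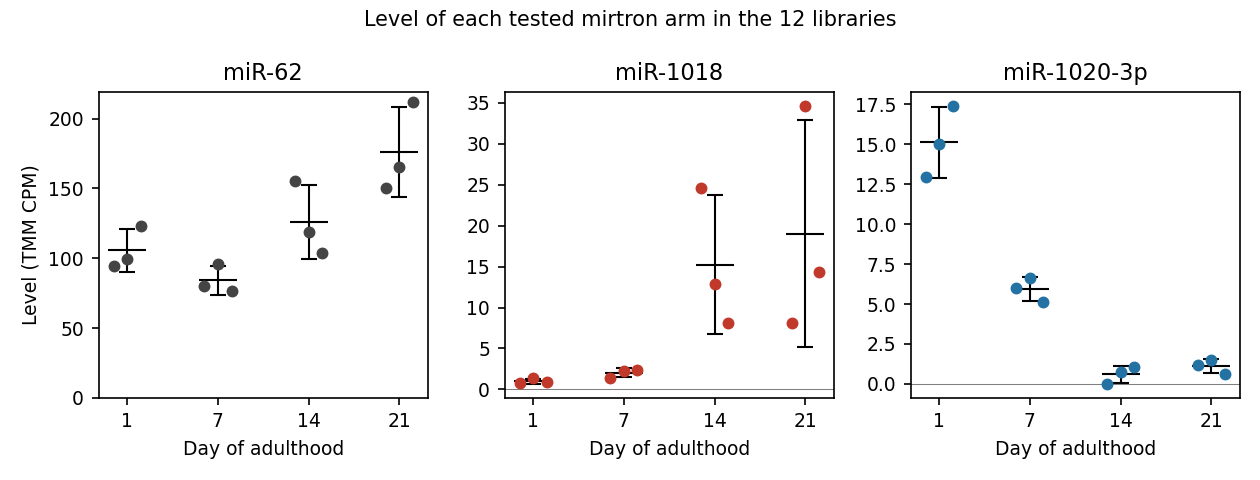
Level of the 3 tested mirtron arms in each of the 12 libraries (TMM CPM, y axis, a scale of its own for each arm) against the day of adulthood (x axis), with 1 point per library and bars for the mean ± SD of 3 libraries. miR-62 spans 76.5 to 212 CPM, miR-1018 is at or below 2.37 CPM until D7 and at or above 8.09 from D14 on, and miR-1020-3p goes from 12.9 to 17.4 CPM at D1 to at most 1.51 from D14 on.

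The shares of all microRNAs set the scale for these calls, because age moved a large part of the table. Between D1 and D7, 39.2% of the 245 microRNAs passed (21.2% higher and 18% lower), and 1 of the 3 mirtron arms did, miR-1020-3p. Between D1 and D14, 69% passed (34.3% higher and 34.7% lower), and miR-1018 and miR-1020-3p did, in opposite directions. Between D1 and D21, 71% passed (35.1% higher and 35.9% lower), and all 3 arms did, miR-62 and miR-1018 higher and miR-1020-3p lower. Between D7 and D14, 41.2% passed (24.1% higher and 17.1% lower), with miR-1018 higher and miR-1020-3p lower among them. Between D7 and D21, 52.2% passed (27.3% higher and 24.9% lower), and again all 3 arms did. Over any age 74.3% passed, with the 3 arms among them. With 3 arms tested, these counts do not set the mirtrons apart from all microRNAs. The filter on low counts asked for at least 3 libraries at 1.36 CPM or more, in CPM of the total count without TMM. miR-62 met this level in all 12 libraries. miR-1018 met it in none of D1, where the 1.37 CPM by TMM of replicate 2 was 1.21 CPM of the total count. miR-1020-3p met it in none of D14 or D21. miR-1018 and miR-1020-3p were therefore tested only because they were high at other ages. Their adjusted p are therefore a description and support nothing further, save that of miR-1020-3p between D1 and D7, where every library met the level. The median log2 fold change of the 245 microRNAs lay between -0.12 and 0.01 in the 6 comparisons.

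No difference between D14 and D21 passed for any mirtron arm. The log2 fold change was 0.48 for miR-62 (95% interval -0.01 to 0.98), 0.32 for miR-1018 (-0.71 to 1.35) and 0.80 for miR-1020-3p (-0.47 to 2.07), with adjusted p of 0.63, 0.87 and 0.65 from edgeR. In this comparison 0 of the 245 microRNAs passed in edgeR (0% in either direction) and 0 in DESeq2, while 12 had an unadjusted p under 0.05 in edgeR and 16 in DESeq2. Leaving out both D14 replicate 1 and D21 replicate 1, a choice made after the data were seen, gave 33 of 249 microRNAs. Of these 5 were higher and 28 lower. No mirtron arm was among them, with 1.09 for miR-1018 (adjusted p = 0.0748 from edgeR). Without D14 replicate 3 the value for miR-1020-3p was 1.44 (adjusted p = 0.745 from edgeR). For miR-1018 the value was -0.34 without D21 replicate 2 (adjusted p = 0.749 from edgeR, with 0.0748 to 0.999 over all alternatives). The trend over the 4 ages passed for 68.2% of the microRNAs (33.5% higher and 34.7% lower). It was 0.24 log2 units per day for miR-1018 (adjusted p = 9.9e-05 from edgeR), -0.21 for miR-1020-3p (adjusted p = 1.0e-04) and 0.04 for miR-62 (adjusted p = 0.012). The trend of miR-62 no longer passed without D21 replicate 3 (adjusted p = 0.124 from edgeR) or with total counts as the scale (adjusted p = 0.0751), and its adjusted p ran from 0.00426 to 0.124 over the alternatives.

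**Figure D3:**
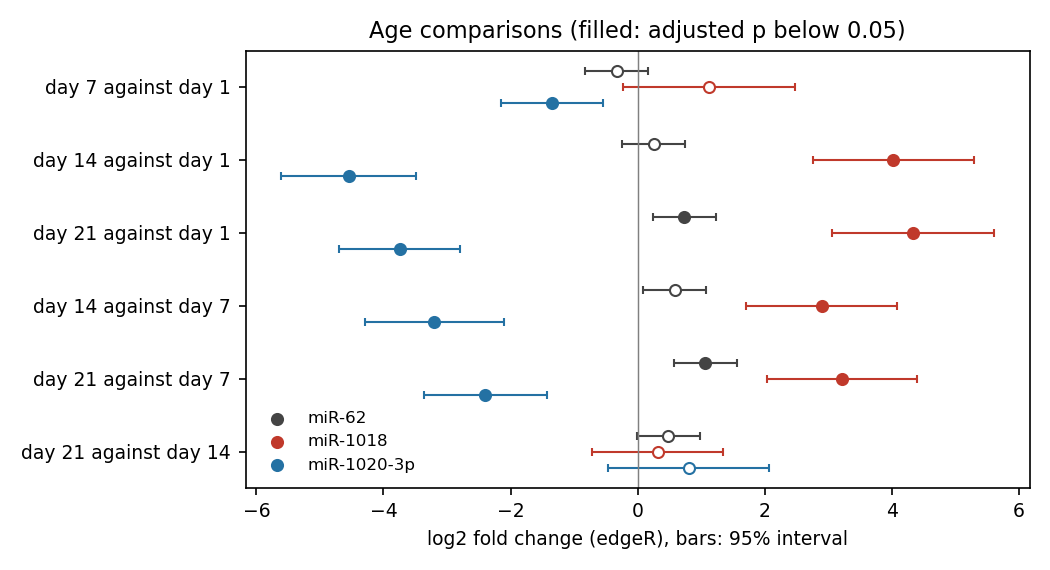
log2 fold change of miR-62 (grey), miR-1018 (red) and miR-1020-3p (blue) from edgeR on the x axis in each of the 6 comparisons between ages (y axis), with 95% intervals as bars and filled points for an adjusted p below 0.05. miR-1018 lies at 4.02 and 4.34 and miR-1020-3p at -4.55 and -3.75 at D14 and D21 against D1, on opposite sides of the line at 0, with miR-62 between them.

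Library by library, the 3 libraries of an age did not overlap with those of the other age for 54.7% of the 245 microRNAs between D1 and D7, 69.8% between D1 and D14, 73.5% between D1 and D21, 62.9% between D7 and D14, 64.5% between D7 and D21 and 9.39% between D14 and D21. miR-1018 and miR-1020-3p did not overlap in any comparison but that of D14 with D21. miR-62 did not overlap between D21 and D1, between D14 and D7, and between D21 and D7. In each of these comparisons, an exact permutation test of the mean log2(CPM + 1) gave p = 0.1 (two-sided), the smallest that 3 against 3 can reach.

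The mirtrons were then compared with each other within each library, by the difference of their log2(CPM + 1). miR-1018 minus miR-1020-3p was -3.02 ± 0.28 (SD, n = 3) at D1 and -1.22 ± 0.35 at D7, then 3.27 ± 1.28 at D14 and 3.04 ± 0.90 at D21. Their order was thus reversed between D7 and D14, and the difference varied with age (one-way F = 44.3, permutation p = 6.8e-04, adjusted p = 0.00204 over the 3 pairs). The lead of miR-62 over miR-1020-3p was 2.73 at D1 and 6.40 at D21 (F = 42.6, permutation p = 0.0016, adjusted p = 0.00229). Its lead over miR-1018 was 5.74 at D1 and 3.36 at D21 (F = 13.7, permutation p = 0.0023, adjusted p = 0.00229). Every pair holds miR-1018 or miR-1020-3p, which passed the filter only through the ages at which they were high. The p-values of the pairs are therefore a description and support nothing further.

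All 6 arms together, in CPM of the total count, made 136 ± 29.5 CPM (SD, n = 3) at D1, 96.1 ± 17.6 at D7, 124 ± 14.7 at D14 and 193 ± 37.7 at D21. miR-62 held 86.7% of this sum at D1, 91.3% at D7, 89.3% at D14 and 89.8% at D21. The remainder changed hands. miR-1020-3p held 12.4% ± 0.528 (SD, n = 3) at D1 and 0.589% ± 0.268 at D21, while miR-1018 held 0.829% ± 0.310 at D1 and 9.52% ± 6.64 at D21.

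For *mir-1020* both arms are listed, and the 3p arm made nearly all of the counts. It had 609 of 614 counts at D1, or 99.2% (exact Clopper-Pearson 95% interval 98.1% to 99.7%). It had all 141 counts at D7, all 12 at D14 and all 27 at D21, for which the lower limits are 97.4%, 73.5% and 87.2%. A change of the arm ratio with age was not detectable at this depth, and no test was made, since the 5p arm was too rare.

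The other hairpins that fill an intron were set beside the 4 mirtrons. The counts hold 14 of them once hairpins with the same mature microRNA are counted once, with 18 arms, of which 8 were tested. The 1.36 CPM of the filter was met in no library of D1 by miR-2220-3p, miR-4809-3p and miR-4923b and in no library of D14 or D21 by miR-4922, so that 4 of the 8 arms passed the filter only through the ages at which they were high. Their counts are therefore a description and support nothing. At D7 against D1, 3 of the 8 were higher and 0 lower, beside 21.2% and 18% of all microRNAs tested. At D14, 5 were higher and 2 lower, beside 34.3% and 34.7%, and at D21 again 5 were higher and 2 lower, beside 35.1% and 35.9%. With no filter on low counts, 15 of the 18 arms were fitted, and 5 were higher and 2 lower at both D14 and D21. In that fit, 78 of the 245 microRNAs that pass the filter were higher and 89 lower at D14. At D21, 83 of them were higher and 99 lower. The 15 arms include some that fail the filter, so the 245 are not a matched background. These counts are a description as well and do not show that the filter had no part. Hairpins inside a larger intron on the same strand, counted in the same way, were 46 with 79 arms. Of these, 38 hairpins with 57 arms were tested. These arms had 14 higher and 16 lower at D14, beside 34.3% and 34.7% of all microRNAs tested. At D21 they had 16 higher and 20 lower, beside 35.1% and 35.9%. Of the 14 hairpins of the first list, 8 lie in 1 gene and 6 in other genes. The grouping by host gene that follows was made after the values of these hairpins were seen and has no test.

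All 5 arms that were higher lie in *Y59E1B.1*, the host of *mir-1018*. Of the 34 introns of this non-coding gene, 11 are filled by an annotated hairpin of 56 to 61 nt. Besides *mir-1018*, 8 of these hairpins are named in the counts (*mir-4807*, *mir-4808*, *mir-4809*, *mir-2220*, *mir-4925*, *mir-4923b*, *mir-4923a* and *mir-4921*), with 11 arms, and 5 of the arms were tested. The other 2 are *mir-4810a* and *mir-4810b*. The counts hold a line for *mir-4810*, whose name does not say which of them it is, with 3 counts at D1, 2 at D7, 7 at D14 and 11 at D21. It was too rare to be tested and is left out of the tallies that follow. *mir-1018* lies in the group near the 3′ end of the gene, 979 nt before its last base.

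**Figure D4:**
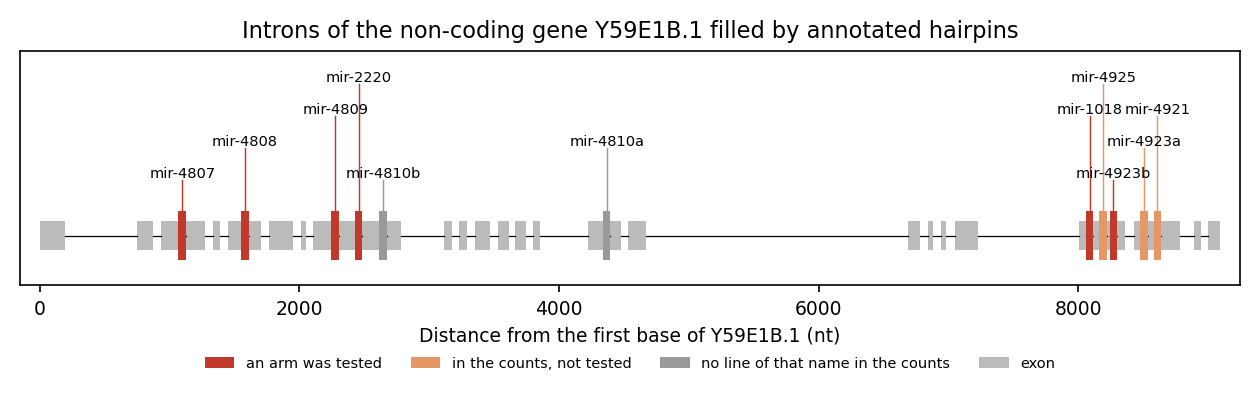
The gene *Y59E1B.1*, drawn to scale, with the distance from its first base in nt on the x axis, exons in light grey and the 11 introns filled by an annotated hairpin in colour (red with a tested arm, orange in the counts but not tested, dark grey without a line of that name). *mir-1018* is intron 27 of 34, next to *mir-4925* and *mir-4923b*.

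miR-4807, the most abundant of them, had 11 to 52 counts at D1 and 367 to 561 at D21. Its level went from 2.25 ± 0.45 CPM (SD, n = 3) at D1 to 8.04 ± 0.80 at D7, 58.2 ± 21.1 at D14 and 61.6 ± 31.4 at D21. Against D1 it rose by 1.82 at D7 (adjusted p = 0.0027 from edgeR), by 4.67 at D14 (adjusted p = 4.5e-07) and by 4.75 at D21 (adjusted p = 3.7e-07). miR-4807 thus passed at all 3 later ages, where miR-1018 passed at the last 2.

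miR-4808-3p had a log2 fold change of 0.54 at D7 against D1 (adjusted p = 0.31 from edgeR) and rose by 3.29 at D14 (adjusted p = 3.5e-06) and by 3.31 at D21 (adjusted p = 3.0e-06). miR-4809-3p had a value of 1.05 at D7 (adjusted p = 0.17 from edgeR) and rose by 3.85 at D14 (adjusted p = 1.1e-05) and by 4.31 at D21 (adjusted p = 3.1e-06). miR-4923b rose by 2.25 at D7 (adjusted p = 0.0032 from edgeR), by 4.38 at D14 (adjusted p = 2.0e-06) and by 4.49 at D21 (adjusted p = 1.7e-06). Without D1 replicate 3 these rises of miR-4923b were 1.62, 3.75 and 3.87 (adjusted p = 0.0252, 3.1e-05 and 2.4e-05 from edgeR). miR-4809-3p and miR-4923b had 3 to 9 and 3 to 6 counts per library at D1 and met the filter level in none of them. They were tested only because they were high at other ages, so their adjusted p against D1 are a description and support nothing. miR-2220-3p had only 3 counts over the libraries of D1, so its ratio to D1 is given with a counting interval. It was 11 at D7 (95% interval 3.32 to 57.6), 47.2 at D14 (15.6 to 233) and 56.6 at D21 (18.9 to 278).

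The 11 arms of *Y59E1B.1* without miR-1018, summed in CPM of the total count, were at 5.30 ± 1.23 (SD, n = 3) at D1, 14.4 ± 1.21 at D7, 80.0 ± 18.4 at D14 and 96.3 ± 35.3 at D21. miR-1018 made 17.3% ± 5.39 of the counts of the gene's arms at D1, 12.6% ± 3.4 at D7, 13.6% ± 2.53 at D14 and 14.8% ± 3.66 at D21. The share at D1 rests on 7 to 16 counts of miR-1018 per library. With miR-4810 counted to the gene, the shares were 17.2%, 12.5%, 13.5% and 14.8%. Whether the share differed between ages was not tested. At D14 and D21, the order of the libraries by miR-1018 was also that of miR-4807, miR-4808-3p, miR-4809-3p and miR-4923b. At D7 it was not. miR-1018 was highest in replicate 3 (2.37 CPM), where miR-4808-3p (1.98), miR-4809-3p (0.66) and miR-4923b (1.32) were lowest. At D1 miR-1018 was highest in replicate 2 (1.37 CPM), as were miR-4809-3p and miR-4923b, while miR-4808-3p was lowest there (0.977). Pearson's r of the deviations from the mean of each age over the 12 libraries was 0.941 with miR-2220-3p, 0.887 with miR-4807, 0.874 with miR-4809-3p, 0.832 with miR-4923b and 0.709 with miR-4808-3p. These points share their library and its scaling, and r is a description. It was taken for arms of this gene only, so it does not set the neighbours apart from other microRNAs.

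The hairpins that fill an intron of another gene were 6, with 7 arms and 3 tested, of which 0 were higher and 2 lower at D14 and at D21 (all microRNAs: 34.3% and 34.7%, then 35.1% and 35.9%). miR-4816-5p, which comes from an intron of *T09B4.2*, fell by 1.06 at D14 (adjusted p = 0.021 from edgeR) and by 1.35 at D21 (adjusted p = 0.0047 from edgeR). A fit of the 2 ages alone gave -0.999 at D14 (adjusted p = 0.0651 from edgeR, with 0.00179 to 0.0651 over all alternatives). miR-4816-3p from the same hairpin had values of -0.36 at D14 (adjusted p = 0.28 from edgeR) and 0.32 at D21 (adjusted p = 0.30 from edgeR). Without D1 replicate 2 these were -0.71 (adjusted p = 0.037 from edgeR) and -0.023 (adjusted p = 0.949 from edgeR), with 0.037 to 0.585 and 0.2 to 0.949 over all alternatives. Its level in that library was 6.84 CPM against 10.9 and 14.1 in the other libraries of D1. The 5p and 3p arms of *mir-4816* could be tested side by side, which was not possible for a hairpin of the 4 mirtrons.

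**Figure D5:**
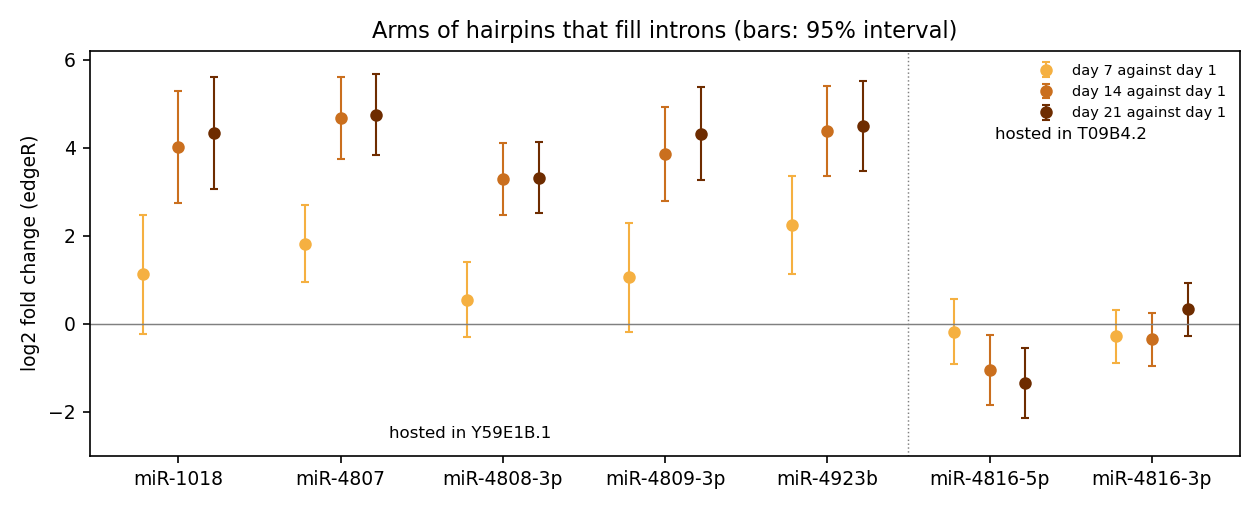
log2 fold change from edgeR (y axis, bars for the 95% interval) of miR-1018 and of the 6 other arms of intron-filling hairpins with the highest mean level (x axis), at D7, D14 and D21 against D1, to the left of the dotted line from introns of *Y59E1B.1* and to the right from *T09B4.2*. The arms from *Y59E1B.1* lie between 3.29 and 4.75 at D14 and D21, and those of *mir-4816* between -1.35 and 0.32.

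Across all tested microRNAs, the courses most like each mirtron were sought by Pearson's r of log2(CPM + 1) over the 12 libraries, which share 4 ages and the scaling. For miR-1018 they were miR-2220-3p (r = 0.984) and miR-4809-3p (r = 0.981) from the same host gene, and miR-2208a-5p (r = 0.976), whose hairpin is in no intron. For miR-1020-3p they were miR-47-3p (r = 0.965), miR-788-5p (r = 0.955) and miR-71-3p (r = 0.954). Of their hairpins only *mir-71*, known for lengthening the life of worms, lies in an intron, that of *ppfr-1*. For miR-62 they were miR-2-3p (r = 0.947), miR-5592-5p (r = 0.908) and miR-2209c-3p (r = 0.879). miR-2-3p also comes from *ppfr-1*, from an intron that its hairpin does not fill.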

How the data were processed

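Small RNA from whole N2 worms was sequenced with Illumina libraries, per the labels. Reads were aligned by the authors to WBcel215 with Tophat and assigned to known microRNAs with miRDeep. The deposited table holds whole counts per mature microRNA and library. Its deposited CPM are each count relative to the library total, to within 0.005. Tool versions are not given in the sources used here. The deposited comparisons between ages hold the authors' fold changes and p-values and were not used. Of 375 lines, 7 microRNAs had several, and the line with the largest total stood for each. 1 line without a name held 0 counts.

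Counts were fitted in R 4.3.3 with edgeR 4.0.16 (quasi-likelihood, TMM, filterByExpr by age with a minimum count of 10, Benjamini-Hochberg, threshold 0.05) on all 12 libraries with age as the only term. DESeq2 1.42.0 was an alternative. The fit was tested on simulated data. Total counts were 5782871 to 16863518 at D1, 7319669 to 7896434 at D7, 6651736 to 7387918 at D14 and 6041434 to 11346614 at D21. Replicates differed by more than counting noise, with no pair alike, and errors given are the SD over libraries or the SE from the fit. Reads had no molecular identifiers, and counting intervals cover counting error only. Differences within a library were tested with 100000 permutations of the ages. Hairpins and introns came from the Ensembl annotation of WBcel235, matched by name, and a hairpin filled an intron where both ends lay within 5 nt.

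Named were all arms of the 4 hairpins, the 3 microRNAs most like each tested arm and up to 6 other intron-filling arms with the highest mean level. miR-2220-3p, miR-4922, miR-4810 and the host gene's other hairpins were named after their values were seen. The members and lists were chosen with earlier results of these data known. The sequences of the hairpins are not shown here.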

Additional observations from a re-analysis of the deposited data

How the results depend on the processing

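The alternatives were a filter of 10 counts in every library or none, RLE or total counts in place of TMM, DESeq2, separate fits for each pair of ages, a replicate term, lines summed per microRNA and each library left out. Leaving out D14 replicate 1 with D21 replicate 1 was chosen after the data were seen. It gave 33 microRNAs between D14 and D21, 5 higher and 28 lower, against 0 with any 1 library left out. Of 520 values for 27 results on the mirtrons, 508 kept their direction and side of the threshold. The rises of miR-1018 and the falls of miR-1020-3p at D14 and D21 kept theirs wherever a value was given, as did the fall of miR-1020-3p at D7. The filter of 10 counts in every library left no value for either. Both passed the main filter only through the ages at which they were high. That they kept a direction over the alternatives is therefore a description and supports nothing further.

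With scaling by total counts, miR-62 had 0.56 at D21 and -0.089 at D14 against D1 and a trend of 0.031. That scaling moved the median of all microRNAs from -0.12 to -0.41 at D14 and from -0.06 to -0.26 at D21 against D1. At D14 against D7, miR-62 passed with DESeq2 (0.54, adjusted p = 0.0479) and in a fit of those ages (0.70, adjusted p = 0.022). miR-1018 at D7 passed in a fit of those ages (1.07). With each library left out in turn, miR-62 ranged from 0.43 to 0.78 at D21 against D1, from 0.46 to 0.72 at D14 against D7 and from 0.026 to 0.048 in the trend. miR-1018 ranged from -0.34 to 0.77 at D21 against D14, and was 1.09 without both D14 replicate 1 and D21 replicate 1. miR-4816-3p at D21 against D1 ranged from -0.023 to 0.47. The causes were not tested.

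A replicate block changed no call of a mirtron, with 4.15 for miR-1018, -3.73 for miR-1020-3p and 0.73 for miR-62 at D21 against D1. Over 18 pairs of libraries with the same replicate number, the correlation of deviations had a median of -0.032, and 5 were over 0.1. Over 36 pairs with different numbers the median was 0.069, and 17 were over 0.1. With deviations taken from means of 3 libraries, these values cannot decide whether the numbers pair the samples. The ratio of arms could not be fitted.

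Depth limits *mir-1019* and miR-1020-5p to a statement of counts, and miR-1018 at D1 and miR-1020-3p from D14 on rest on at most 16 and 14 counts per library.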
